A study of Mus musculus with 2 samples.

Results

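A group of 9 genes of the membrane skeleton and the axon initial segment was followed in bulk RNA sequencing of mouse brain: the ankyrins Ank1, Ank2 and Ank3, the spectrins Sptan1, Sptbn1 and Sptbn4, and the cell adhesion molecules Nfasc, Nrcam and Cntnap2. The 9 members were taken by gene symbol from the transcript names of the posterior library and joined by Ensembl gene identifier to the anterior table, and all 9 were found among the 53055 genes present in both tables. The RNA was polyadenylated RNA of wild type C57BL/6J brain, from males at 14 weeks of age, and the labels name no treatment. Of 2 libraries, 1 was made from a tissue sample matched in position to anterior slices, and 1 from a sample matched to posterior slices, of an imaging experiment with MERFISH, a microscopy method that identifies single RNA molecules in place. With 1 library per position, no spread between animals could be measured and no test between positions was possible. The position, the library and the quantification differed together (genes aligned with HISAT2 in the anterior library, transcripts estimated with Salmon in the posterior library) and cannot be told apart.

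Spectrin is a long, flexible tetramer of alpha and beta chains that lines the inner face of the plasma membrane and is tied together by short actin filaments. Ankyrins are adaptors: their repeats bind ion channels and adhesion molecules, and their spectrin-binding domain anchors these to the skeleton. In neurons, ankyrin-G, the product of Ank3, gathers sodium and potassium channels, neurofascin, NrCAM and beta-IV spectrin at the axon initial segment, where action potentials start, and at nodes of Ranvier. Ankyrin-B, the product of Ank2, and beta-II spectrin, the product of Sptbn1, lie along the rest of the axon.

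The anterior library came to 43558839 fragments and the posterior library to 147138183 estimated fragments, a depth 3.38 times as great. Values of the anterior library are given first (anteriorly), followed by those of the posterior library (posteriorly). Between 2717 and 59367 fragments fell in a member anteriorly and between 13858 and 171381 posteriorly, so the counting intervals of the members were narrow. All intervals are 95% and cover counting error only. As measures of the tissue, each of the 7 neuronal and 8 oligodendrocyte marker genes was found in both libraries, and none was at 0. The 8 oligodendrocyte markers summed to 3879 anteriorly and to 7240 posteriorly, in parts per 1000000 protein-coding fragments (ppm), and all 8 were higher in the posterior library, by 0.59 to 1.13 on the log2 scale. The 7 neuronal markers summed to 7479 and 5123, and 6 of the 7 were lower in the posterior library. Of 5 astrocyte and 5 endothelial markers, 3 each had a higher share there, and the medians were 0.13 and 0.04. The part of these shifts in the differences of the members was not tested, and in bulk tissue fewer cells of a type and less RNA per cell cannot be told apart.

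Levels are given per length as FPKM (fragments scaled to gene length and library size). For the comparison of the libraries they are given in ppm, called the fragment share, which uses no gene length. The second scale was needed because the libraries divide by different lengths. In the anterior table the length of Ank2 was 35004 bases and that of Ank3 34838 bases, as for all exons of a gene together. In the posterior library the transcripts carrying the FPKM averaged 5252 bases for Ank2 and 5004 bases for Ank3. The anterior length was 7.05 times the mean effective length of the posterior transcripts for Ank2, 7.39 times for Ank3 and 4.66 times for Nrcam, against 1.79 to 2.38 times for the other 6 members and a median of 1.87 over the 13339 protein-coding genes compared.

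Ank2 had the highest level of the members in the posterior library but not in the anterior table. Ank2, on the minus strand at chr3:126921612-127499350 in build GRCm38, had an FPKM of 35.1 anteriorly and 207 posteriorly. Ank3, on the plus strand at chr10:69398773-70027438, had an FPKM of 18.2 and 141. Ank1, on the plus strand at chr8:22974844-23150497, encodes the ankyrin first known from red cells and had an FPKM of 5.50 and 15.4. The anterior fragments were then divided by the effective length of the posterior transcripts and by their own sum, 43558839. The anterior values became 208 for Ank2, 113 for Ank3 and 10.2 for Ank1. The deposited anterior FPKM was scaled to another total, so both the length and the total changed in this step. Of the summed FPKM of the 3 ankyrin genes, Ank2 made up 59.7% in the anterior table, 62.8% with lengths matched and 56.9% in the posterior library. Ank3 made up 30.99%, 34.2% and 38.8% on the same 3 measures. Ank2 was therefore the leading ankyrin gene on every measure, and Ank1 the lowest.

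By fragment share Ank2 and Ank3 differed less between the libraries than by FPKM. Ank2 had 1058 ppm anteriorly and 1126 posteriorly, a ratio of posterior to anterior of 1.06 (interval 1.05 to 1.08). Ank3 had 547 and 729 ppm, a ratio of 1.33 (1.32 to 1.35). Ank1 had 64.0 and 103 ppm, a ratio of 1.61 (1.54 to 1.68), which was the highest among the 9 members. All 3 ankyrins thus had a higher share in the posterior library. Hemoglobin genes moved with Ank1: the summed share of 8 erythroid markers was 98.5 anteriorly and 225 posteriorly, 5 of the 8 passed the filter on low values, and 4 of those 5 were higher in the posterior library. The erythroid genes Slc4a1 and Epb42 had 2 and 3 fragments anteriorly and 10 and 16 posteriorly, beside 2717 and 13858 for Ank1, and the part of erythroid RNA in the Ank1 value was not tested.

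Sptan1, on the plus strand at chr2:29965560-30031451, encodes alpha-II spectrin, the alpha chain of nonerythroid tissues. It had the highest anterior FPKM of the members, 122, and a posterior FPKM of 178. Sptbn1, on the minus strand at chr11:30099395-30268175, had an FPKM of 79.8 and 151. Sptbn4, on the minus strand at chr7:27356383-27447686, encodes beta-IV spectrin, which links ankyrin-G to actin at the initial segment and nodes, and had an FPKM of 25.7 and 44.9. The alpha chain was thus the most abundant of the 3 per length in both libraries, and the initial segment beta chain the least.

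By fragment share Sptan1 was the one spectrin member that was lower in the posterior library, with 1399 ppm anteriorly and 1238 posteriorly, a ratio of 0.885 (0.877 to 0.894). Sptbn1 had 1201 and 1274 ppm, a ratio of 1.06 (1.05 to 1.07). Sptbn4 had 212 and 254, a ratio of 1.20 (1.17 to 1.23).

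The adhesion molecules differed in direction. Nfasc, on the minus strand at chr1:132564690-132741797, encodes neurofascin, an ankyrin-binding molecule of the L1 family with a neuronal form at initial segments and nodes and a glial form at the paranodes beside them. It had an FPKM of 28.7 anteriorly and 72.6 posteriorly. Its share was 349 and 472 ppm, a ratio of 1.35 (1.33 to 1.38). Nrcam, on the plus strand at chr12:44328885-44601964, encodes a relative of neurofascin at the same sites and had an FPKM of 46.6 and 133. Its share went the other way, with 536 ppm anteriorly and 416 posteriorly, a ratio of 0.776 (0.764 to 0.788). Cntnap2, on the plus strand at chr6:45059357-47304213, encodes Caspr2, a neurexin relative that holds potassium channels at juxtaparanodes. It had an FPKM of 15.5 and 25.1 and a share of 137 and 157 ppm, a ratio of 1.15 (1.12 to 1.19).

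**Figure D1:**
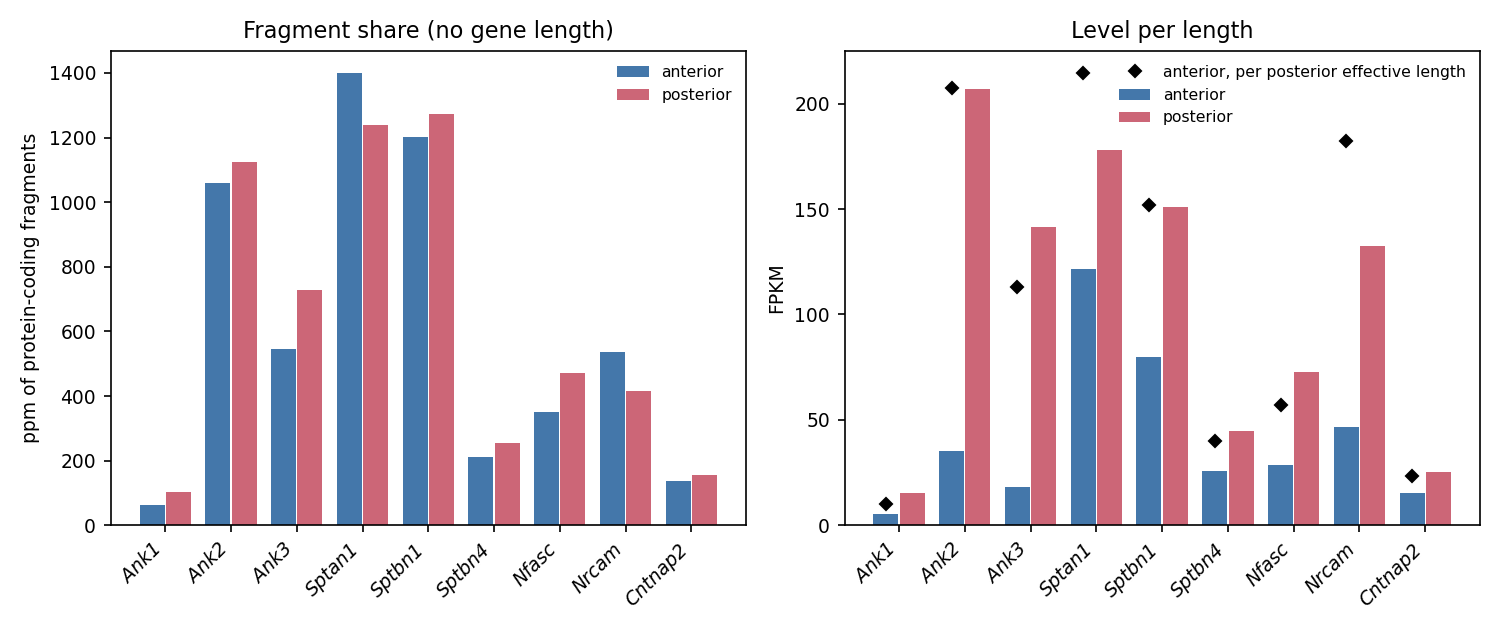
Left, parts per 1000000 protein-coding fragments (ppm, axis from 0) of the 9 members in the 1 anterior and the 1 posterior library, as bars. Right, the FPKM of the same genes, with diamonds for anterior fragments divided by the effective length of the posterior transcripts. The diamonds also use another library total than the anterior bars. The anterior bars of Ank2 and Ank3 lie at 35.1 and 18.2 and their diamonds at 208 and 113, beside posterior bars at 207 and 141.

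In the order of posterior FPKM, Ank2 was followed by Sptan1, Sptbn1, Ank3, Nrcam, Nfasc, Sptbn4, Cntnap2 and Ank1. In the anterior table the order was Sptan1, Sptbn1, Nrcam, Ank2, Nfasc, Sptbn4, Ank3, Cntnap2 and Ank1. No neighbours in either order had overlapping counting intervals, although the spread between animals is unknown. With lengths matched, the anterior order became Sptan1, Ank2, Nrcam, Sptbn1, Ank3, Nfasc, Sptbn4, Cntnap2 and Ank1. Nfasc, Sptbn4, Cntnap2 and Ank1 filled the last 4 places both in that order and in the posterior one.

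No member was 2-fold apart between the libraries by fragment share. Over the 13339 protein-coding genes that reached an FPKM of 1 in at least 1 library, 8.19% were past 2-fold toward the posterior library on this scale and 1.84% toward the anterior one. By direction, 7 members were higher and 2 lower in the posterior library, and the median of their log2 differences was 0.20, with the median of all genes set to 0. Their median distance from 0 was 0.26, beside 0.25 for all genes. The members thus moved by about as much as a typical protein-coding gene.

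By FPKM, 2 members were past 2-fold, both higher in the posterior library, against a background of 14.5% of all genes past 2-fold toward the posterior library and 7.11% toward the anterior one. These were Ank2 with a centred log2 difference of 1.91 and Ank3 with 2.29, the members with the highest ratios of anterior gene length to posterior transcript length. Before centring, the FPKM scale was shifted by 0.63 over all genes. Nrcam had a log2 difference of 0.87 by FPKM and of -0.37 by share, so its direction depended on the scale. The median difference of the members was 0.69 by FPKM. With the posterior protein-coding transcripts alone, Nrcam was the 1 member past 2-fold by share, toward the anterior library. The anterior fragments, known per gene only, stayed whole in that setting, so the 2 sides were counted unlike. Of the posterior fragments of Nrcam, 44.7% lay in complete coding transcripts and 8.70% in incomplete ones, and the rest were left out. The value is therefore not read as a difference between positions.

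**Figure D2:**
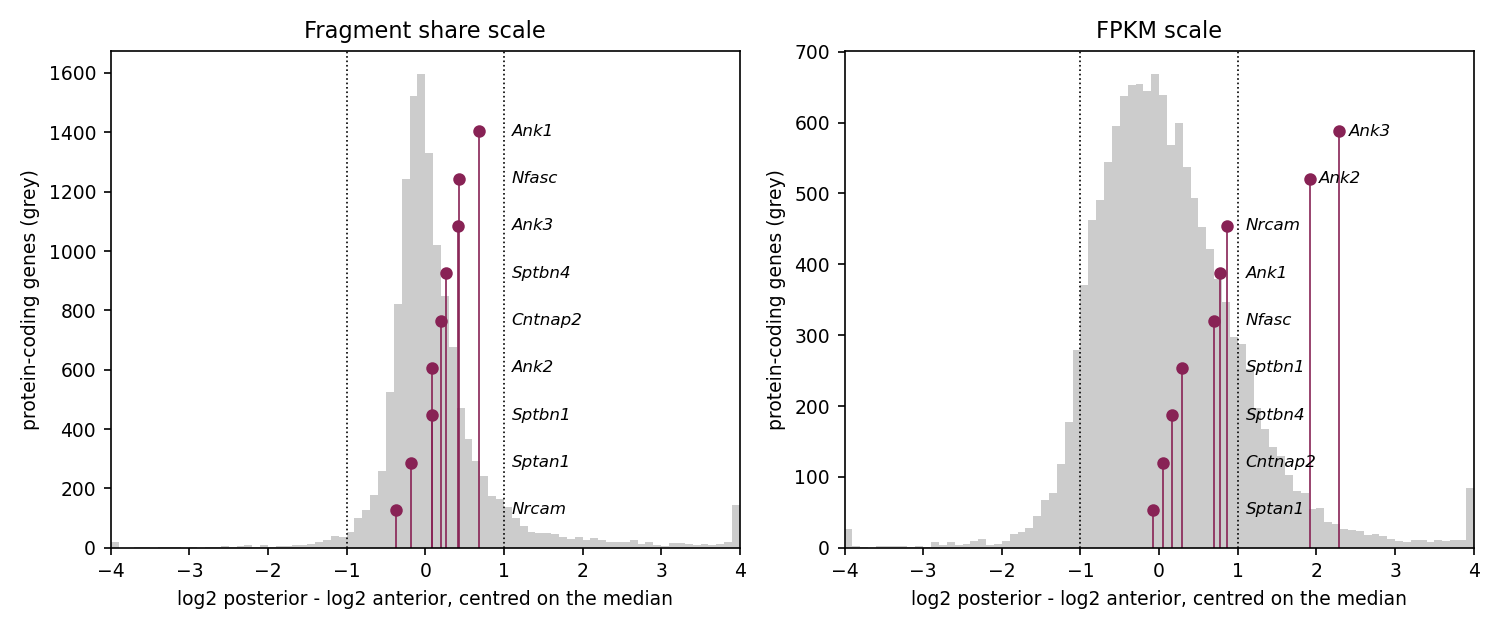
Log2 difference, posterior minus anterior, of the 9 members (points) over a histogram of 13339 protein-coding genes (grey, values beyond 4 in either direction drawn at the edge), by fragment share (left) and by FPKM (right), both centred on the median. Dotted lines mark 2-fold: no member lies past them by share, and Ank2 (1.91) and Ank3 (2.29) do by FPKM.

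Transcripts were resolved in the posterior library alone. The 9 members had 158 annotated transcripts, from 6 for Cntnap2 to 47 for Ank3, of which 153 could be placed in GENCODE release M21. The 5 others held 0.0115% of the fragments of the members. Because FPKM divides by length, short transcripts count for more by FPKM than by fragments. The main shares are given on both scales, and some transcripts by FPKM alone. The deposited values carry no estimate of Salmon's error. By FPKM, the leading transcript held at least 50% of the gene for 4 members (Ank1, Sptan1, Sptbn4 and Cntnap2), against 73.9% of the 11965 genes that reached an FPKM of 1 and had more than 1 transcript. The median leading share was 48.9% for the members, 68.2% for those 11965 genes and 53.6% for the 5946 genes with 6 to 47 transcripts each. By fragments, 5 members were led at 50% or more, and the leading transcript was another one for Ank2, Ank3 and Nrcam. The share over all genes was not computed by fragments, so that count has no background.

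**Figure D3:**
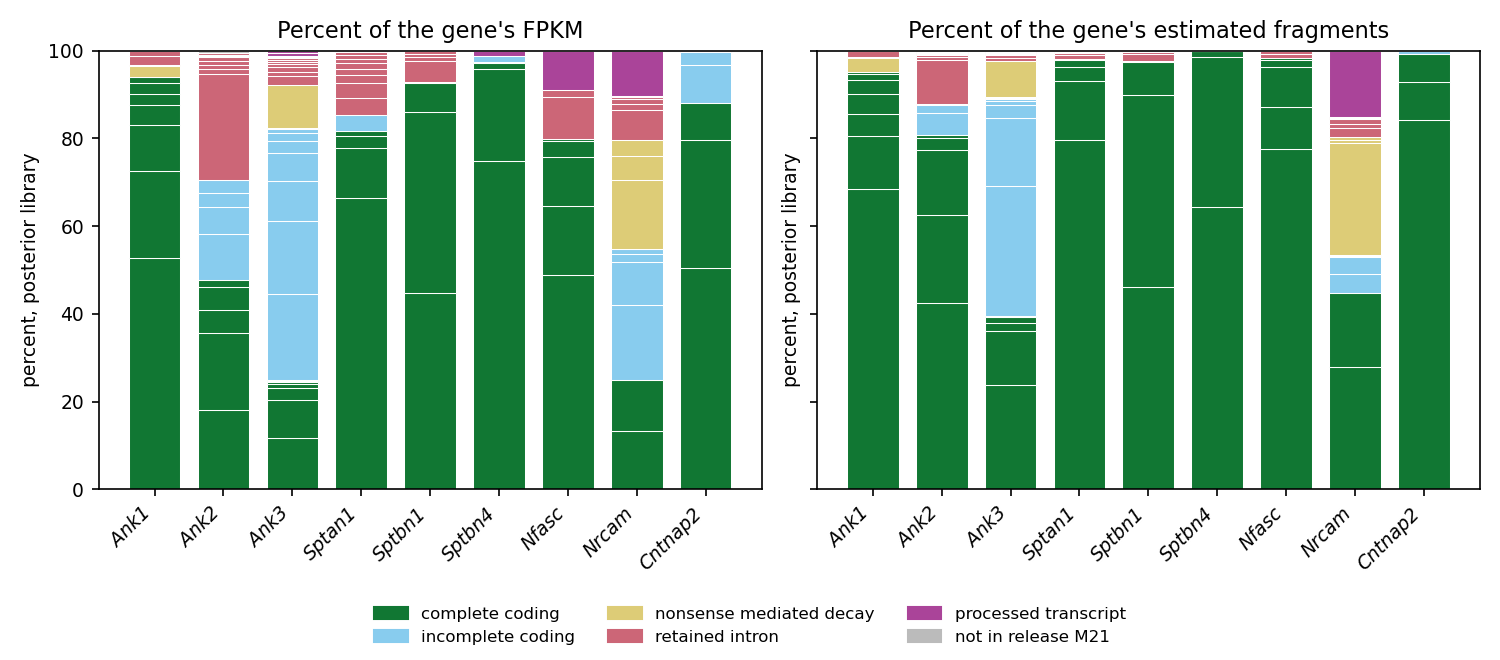
Percent of each member's FPKM (left) and estimated fragments (right) in each annotated transcript of the posterior library, 1 stacked block per transcript, coloured by the class GENCODE gives it. Complete coding transcripts hold 24.8% of the FPKM of Ank3 and 24.9% of that of Nrcam, and 97.4% of that of Sptbn4.

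Ank2 was divided between forms with and without a giant coding exon of 6198 bases at chr3:126941610-126947807. Giant ankyrin-B, the axonal form, is the product of transcripts that keep such an exon. Ank2-207, which has it and 3926 codons, held 17.4% of the FPKM and 42.6% of the fragments. Ank2-208, with the exon and 3900 codons, held 5.23% and 14.8%. Ank2-201 skips the exon, starts inside the gene at position 126998462 and has 1050 codons, and it held 18.2% and 20.1%. Among the transcripts that span this place, the giant exon was included in 55.5% by FPKM and in 74.1% by fragments. The transcript with the highest FPKM, Ank2-216 with 24.1% of the gene and 10.04% of the fragments, is annotated as a retained intron, but 2358 of its 2359 bases lie in exons of both Ank2-201 and Ank2-208. None of its words of 31 bases was unique to it, so its fragments can be told from theirs only by the estimation. Ank2-227, an incomplete model of 365 bases, held 10.5% of the FPKM and 0.195% of the fragments. Ank2-218 and Ank2-221 held 6.28% and 5.35% of the FPKM.

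Ank3 was divided among many transcripts: 7 held at least 5% of the FPKM each, and none reached 20%. Giant ankyrin-G, which builds the initial segment, likewise needs a giant exon. The exon of 7674 bases at chr10:69986089-69993762 was in 1 transcript, Ank3-244, an incomplete model that held 16.7% of the FPKM and 29.5% of the fragments. Ank3-233 has an exon of 2550 bases that starts at nearly the same base, at 69986083, and ends earlier, and held 9.17% and 15.6%. Without either exon, Ank3-231, with 1961 codons, held 11.6% and 23.8%, and Ank3-240, with 1807 codons, held 8.79% and 12.3%. The giant exon of 7674 bases was included in 38.5% by FPKM and 42.1% by fragments when set against the transcripts that splice over it. Ank3-243 led the gene by FPKM with 19.7% but held 1.03% of the fragments, and all of its 534 bases lie in exons of Ank3-244. Ank3-225, annotated for nonsense-mediated decay (a pathway that destroys messages with early stop codons), held 9.69% of the FPKM, and Ank3-236 held 6.28%. By start site, 63.9% of the FPKM of the transcripts with a complete 5′ end came from the first exon at position 69533772 and 26.8% from that at 69706370. These were 30.9 and 13.0 of the 141 FPKM of the gene. Ank3-243, Ank3-244, Ank3-225 and Ank3-236 are outside this base, so the division is not that of the whole gene.

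Ank1 was led by Ank1-209, a long form of 1907 codons with 52.7% of the FPKM and 68.4% of the fragments. Ank1-203, with 1744 codons, held 10.6% and 12.1%. Second by FPKM was Ank1-208, with 155 codons, which held 19.8% of the FPKM and 4.71% of the fragments. It starts at position 23139030, near the 3′ end of the gene. Small ankyrin-1, a form without ankyrin repeats, is best known from the sarcoplasmic reticulum of skeletal muscle. The 5 skeletal muscle markers summed to 12.04 ppm anteriorly and 15.2 posteriorly, none was at 0, and they differed in direction. Acta1, the 1 marker that passed the filter on low values, had 348 fragments anteriorly and 498 posteriorly, a ratio of shares of 0.452 (0.393 to 0.519). Ttn had 77 and 1320 fragments, a ratio of 5.41 (4.30 to 6.90), Actn3 had 50 and 169, Myh4 had 30 and 46, and Ckm had 6 and 5. Their part in the Ank1 values was not tested. Ank1 overlapped the opposite-strand gene Gm15816 in 6.37% of its exonic bases, and without a stated strand setting reads there cannot be assigned with certainty. The same holds for 2.54% of the exonic bases of Sptbn4, 0.766% of those of Sptbn1 and 0.520% of those of Ank2. A further 1.40% of the exonic bases of Sptbn4 overlapped a gene on the same strand. The exons of the other 5 members overlapped no exon of another annotated gene.

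Complete coding transcripts held 81.7% of the FPKM of Sptan1 and 97.9% of its fragments, and retained-intron transcripts 14.7% and 1.82%. Sptan1-203, with 2477 codons, held 66.5% of the FPKM and 79.5% of the fragments, and 0 of its 7862 words of 31 bases were unique to it. Sptan1-204, which lacks an exon of 60 bases, held 11.3% and 13.7%. The first exon was shared by all coding transcripts with a complete 5′ end and an FPKM above 0. Sptbn1 was split between Sptbn1-202 with 44.7% of the FPKM and Sptbn1-201 with 41.4%, which have the same coding sequence of 2363 codons. All 8238 bases of Sptbn1-202 lie in exons of Sptbn1-201, which is 8461 bases long, and the first exon of Sptbn1-202 is an internal exon of Sptbn1-201. Against all transcripts of the gene, 0 and 1 words of 31 bases are unique to the pair. Fragments on the bases of Sptbn1-201 that Sptbn1-202 lacks separate the 2, and elsewhere their division rests on the estimation. Sptbn1-203, with another 3′ end and 2154 codons, held 6.51% of the FPKM and had 2836 unique words.

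Sptbn4 was led by its short form. Sptbn4-203, with 1241 codons, held 74.9% of the FPKM and 64.3% of the fragments, and Sptbn4-201, with 2561 codons, held 20.9% and 34.3%. All 3723 coding bases of Sptbn4-203 are also coding in Sptbn4-201, and its own start lies inside the longer transcript's span. In mouse, a short beta-IV spectrin that lacks the actin-binding end is known at initial segments and nodes. The start of Sptbn4-203 held 75.7% of the FPKM of the transcripts with a complete 5′ end and that of Sptbn4-201 held 21.2%.

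The 250 bases before the RefSeq starts nearest to these and to that of Sptbn1-202 are shown because the division of both genes between forms turns on the annotated start. They are from RefSeq on GRCm38.p6, written 5′ to 3′ on the gene's strand, with the letters CG, the site of DNA methylation in mammals, in capitals. The RefSeq start coincides with the GENCODE one for Sptbn4-203 and Sptbn1-202, while the window of Sptbn4-201 reaches 10 bases into that transcript.
Sptbn4-203, chr7:27396554-27396803, - strand: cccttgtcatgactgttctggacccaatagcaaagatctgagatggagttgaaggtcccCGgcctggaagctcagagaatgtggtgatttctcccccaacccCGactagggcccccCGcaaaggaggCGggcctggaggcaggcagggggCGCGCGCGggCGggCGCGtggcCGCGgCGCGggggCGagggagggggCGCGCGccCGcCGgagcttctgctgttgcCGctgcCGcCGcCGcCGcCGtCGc
Sptbn4-201, chr7:27446590-27446839, - strand: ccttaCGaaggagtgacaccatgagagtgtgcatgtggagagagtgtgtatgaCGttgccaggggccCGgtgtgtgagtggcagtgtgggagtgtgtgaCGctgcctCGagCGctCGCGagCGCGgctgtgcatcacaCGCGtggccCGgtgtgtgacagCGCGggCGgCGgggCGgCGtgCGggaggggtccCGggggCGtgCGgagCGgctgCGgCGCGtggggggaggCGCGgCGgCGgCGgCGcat
Sptbn1-202, chr11:30219773-30220022, - strand: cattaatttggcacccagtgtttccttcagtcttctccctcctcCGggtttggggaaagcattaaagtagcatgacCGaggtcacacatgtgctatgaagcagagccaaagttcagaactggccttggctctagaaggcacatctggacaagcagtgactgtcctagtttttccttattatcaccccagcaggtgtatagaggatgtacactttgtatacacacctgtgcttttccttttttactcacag
Both Sptbn4 windows were rich in CG, with 28 before Sptbn4-203 and 33 before Sptbn4-201 and a GC content of 71.6% and 72.0%. The window of Sptbn1-202 held 2 CG and 46.0% GC and ends in AG at the border of an exon that is internal in Sptbn1-201. Over 32851 promoter windows of this length, the median was 6 CG and 52.4% GC, and 37.8% of the windows held at least 10 CG. The match is a description of the letters, and use of these starts was not measured apart from the transcript estimates.

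Neurofascin was led by Nfasc-202, with 1240 codons, 48.9% of the FPKM and 77.6% of the fragments. A pair of exon sets divides it from Nfasc-203 and Nfasc-201, which held 15.6% and 11.4% of the FPKM and have 1174 and 1157 codons. Nfasc-202 has 3 exons of 153, 117 and 237 bases that both others lack, between positions 132582995 and 132588310, and these were included in 64.7% by FPKM and 80.8% by fragments. It lacks the neighbouring exons of 205 and 116 bases, between positions 132597765 and 132600214, which were included in 36.1% and 19.8%. The neuronal form of neurofascin is known to carry a mucin-like domain, and the glial form a fibronectin repeat in its place. Which of these exons encode which domain was not read from a protein sequence here. Nfasc-206 and Nfasc-209, annotated as noncoding, held 9.56% and 8.95% of the FPKM and under 1% of the fragments each.

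**Figure D4:**
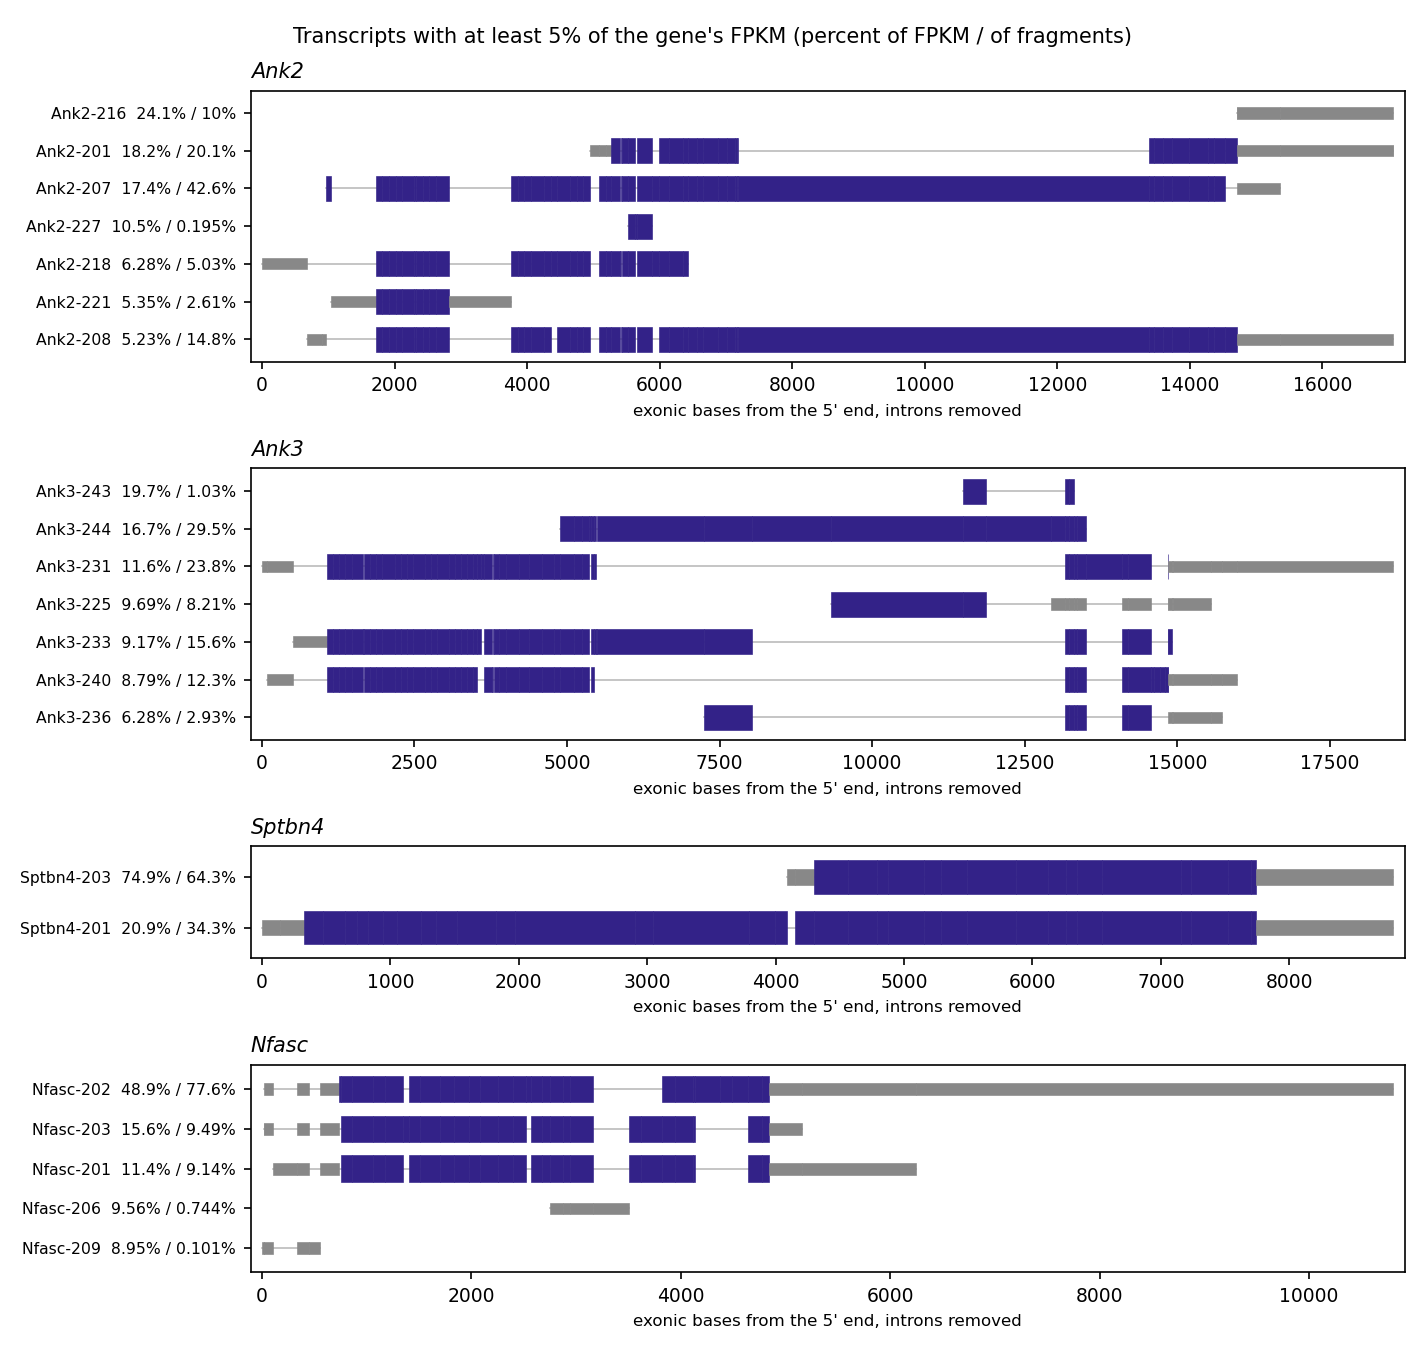
Exons of the transcripts with at least 5% of the FPKM of Ank2, Ank3, Sptbn4 and Nfasc, drawn along the exonic bases of the gene from its 5′ end with introns removed (tall blue, coding; low grey, noncoding; thin line, skipped). Labels give the percent of FPKM and of fragments in the posterior library: the giant exons are the long blocks of Ank2-207 (17.4% and 42.6%) and Ank3-244 (16.7% and 29.5%), and Sptbn4-203 covers the 3′ part of Sptbn4-201.

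Nrcam was spread over 8 transcripts with at least 5% of the FPKM. Nrcam-214, an incomplete model of 916 bases, led by FPKM with 17.0% and held 3.73% of the fragments, and all of its bases lie in exons of Nrcam-201. Nrcam-202, the complete coding form with 1186 codons, held 13.3% of the FPKM and led by fragments with 27.8%. Nrcam-201, with 1256 codons, held 11.6% and 16.9%. Nrcam-215, annotated for nonsense-mediated decay, held 15.7% and 25.5%, and the noncoding Nrcam-203 held 10.3% and 15.2%. Nrcam-205, Nrcam-208 and Nrcam-204 held 9.80%, 6.998% and 5.63% of the FPKM. Complete coding transcripts came to 24.9% of the FPKM and 44.7% of the fragments of Nrcam, beside 80.0% and 98.4% for Nfasc.

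Cntnap2 spans 2245 kb, and 3 of the 13339 genes compared spanned more. Its full-length transcript Cntnap2-202, with 1332 codons, held 50.5% of the FPKM and 84.1% of the fragments. Cntnap2-201 and Cntnap2-205 start at positions 47244453 and 47244387, near the 3′ end, and have 108 codons each. They held 29.2% and 8.46% of the FPKM, and 6.38% and 8.85% of the fragments. All 324 coding bases of each are also coding in Cntnap2-202. Cntnap2-206, an incomplete model at the 5′ end, held 8.54% of the FPKM and 0.577% of the fragments.

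Ankyrin binding by the L1 family rests on a short cytoplasmic motif known by its residues as FIGQY. The bases encoding it are shown for the members Nfasc and Nrcam and for their relatives L1cam and Chl1, from the GENCODE M21 transcripts, with the motif in capitals and 24 coding bases on either side in lower case. In Chl1 the motif reads FIGAY.
Nfasc: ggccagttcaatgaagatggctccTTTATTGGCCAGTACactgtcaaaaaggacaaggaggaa
Nrcam: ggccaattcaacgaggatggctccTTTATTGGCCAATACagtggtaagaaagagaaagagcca
L1cam: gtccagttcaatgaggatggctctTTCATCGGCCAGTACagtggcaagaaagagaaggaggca
Chl1: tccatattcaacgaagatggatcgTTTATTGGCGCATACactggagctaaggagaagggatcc
Nfasc and Nrcam were identical at 50 of the 63 bases and at 14 of the 15 bases of the motif. Nrcam and L1cam were identical at 53 of the 63 bases, and Nfasc and Chl1 at 41. The motif was sought only in the annotated coding sequence of each transcript. It was present in 5 of the 10 Nfasc transcripts, which held 76.5% of the FPKM and 96.8% of the fragments of the gene. For Nrcam the motif was in 4 of 17 transcripts, with 51.7% of the FPKM and 52.9% of the fragments. Nrcam-215 and Nrcam-203 were the transcripts above 10% of the FPKM in which it was not found. All 916 bases of Nrcam-214, which has the motif, lie in exons of Nrcam-215. A motif not found therefore does not mean that its bases are absent from the RNA.

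Small alternative exons were found in both adhesion genes of the L1 family and in every ankyrin. Of those in the ankyrins and Sptan1, 7 are shown in capitals, with 15 coding bases of each neighbouring exon in lower case, from GENCODE M21 on GRCm38. They are shown because transcripts of a gene differ by a few codons there.
Ank1 exon of 24 bases, chr8:23110347-23110370, + strand: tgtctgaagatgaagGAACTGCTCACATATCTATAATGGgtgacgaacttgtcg
Ank2 exon of 12 bases, chr3:126979256-126979267, - strand: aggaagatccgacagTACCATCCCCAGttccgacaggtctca
Ank3 exon of 12 bases, chr10:69929447-69929458, + strand: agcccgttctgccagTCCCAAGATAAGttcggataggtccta
Ank3 exon of 24 bases, chr10:69823078-69823101, + strand: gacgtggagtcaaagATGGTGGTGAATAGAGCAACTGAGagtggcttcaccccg
Ank3 exon of 27 bases, chr10:69980824-69980850, + strand: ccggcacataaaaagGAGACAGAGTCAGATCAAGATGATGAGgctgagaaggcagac
Ank3 exon of 54 bases, chr10:69920438-69920491, + strand: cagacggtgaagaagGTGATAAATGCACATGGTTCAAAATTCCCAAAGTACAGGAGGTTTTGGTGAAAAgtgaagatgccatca
Sptan1 exon of 60 bases, chr2:30001100-30001159, + strand: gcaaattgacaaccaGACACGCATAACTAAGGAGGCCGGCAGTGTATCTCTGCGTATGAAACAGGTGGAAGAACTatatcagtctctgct
The 24-base exon of Ank1 was included in 83.7% by FPKM and 85.5% by fragments, and the 60-base exon of Sptan1 in 84.6% and 84.5%. The exons of 12 bases in Ank2 and Ank3 sit in like surroundings. They were identical at 6 of 12 bases, the 15 bases before them at 9 and the 15 bases after them at 11. By FPKM the Ank2 exon was included in 12.4% and the Ank3 exon in 24.7%, and by fragments in 5.94% and 22.1%. The Ank3 exons of 24, 27 and 54 bases were included in 28.3%, 37.2% and 35.1% by FPKM, and in 28.8%, 35.0% and 44.1% by fragments. Of the ankyrin exons shown, those of Ank2 and Ank3 were mostly skipped and that of Ank1 mostly kept. This does not describe the genes as a whole, since longer exons not shown lay on both sides. An Ank3 exon of 63 bases was included in 64.2% by FPKM and 74.0% by fragments, and another of 87 bases in 17.6% and 18.6%. An Ank2 exon of 99 bases at position 127012673 was included in 83.6% and 77.0%.

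For the adhesion molecules, 4 exons that separate transcripts of Nfasc and Nrcam, outside the sets named above, are shown in the same way.
Nfasc exon of 45 bases, chr1:132607003-132607047, - strand: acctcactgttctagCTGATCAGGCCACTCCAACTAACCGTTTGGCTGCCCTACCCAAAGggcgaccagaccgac
Nfasc exon of 51 bases, chr1:132627872-132627922, - strand: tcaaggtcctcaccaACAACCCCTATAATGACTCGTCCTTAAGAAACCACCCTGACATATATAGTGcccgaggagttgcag
Nrcam exon of 30 bases, chr12:44566840-44566869, + strand: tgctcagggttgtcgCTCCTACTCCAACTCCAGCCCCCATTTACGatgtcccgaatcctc
Nrcam exon of 36 bases, chr12:44578145-44578180, + strand: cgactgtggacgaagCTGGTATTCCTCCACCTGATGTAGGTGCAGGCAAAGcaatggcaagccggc
The Nfasc exon of 45 bases was included in 66.3% by FPKM and 81.1% by fragments, and that of 51 bases in 19.5% and 9.64%. The Nrcam exon of 30 bases was included in 64.9% and 58.8%, and that of 36 bases in 76.9% and 62.4%. The length of every exon shown is a multiple of 3, so each alone holds a whole number of codons. The exons of 12 bases in the ankyrins are not simply added. Ank2-218 has that exon and lacks the next coding stretch, which Ank2-201, Ank2-207 and Ank2-208 have. Likewise, Ank3-240 lacks the next coding stretch, which Ank3-231 and Ank3-233 have.

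**Figure D5:**
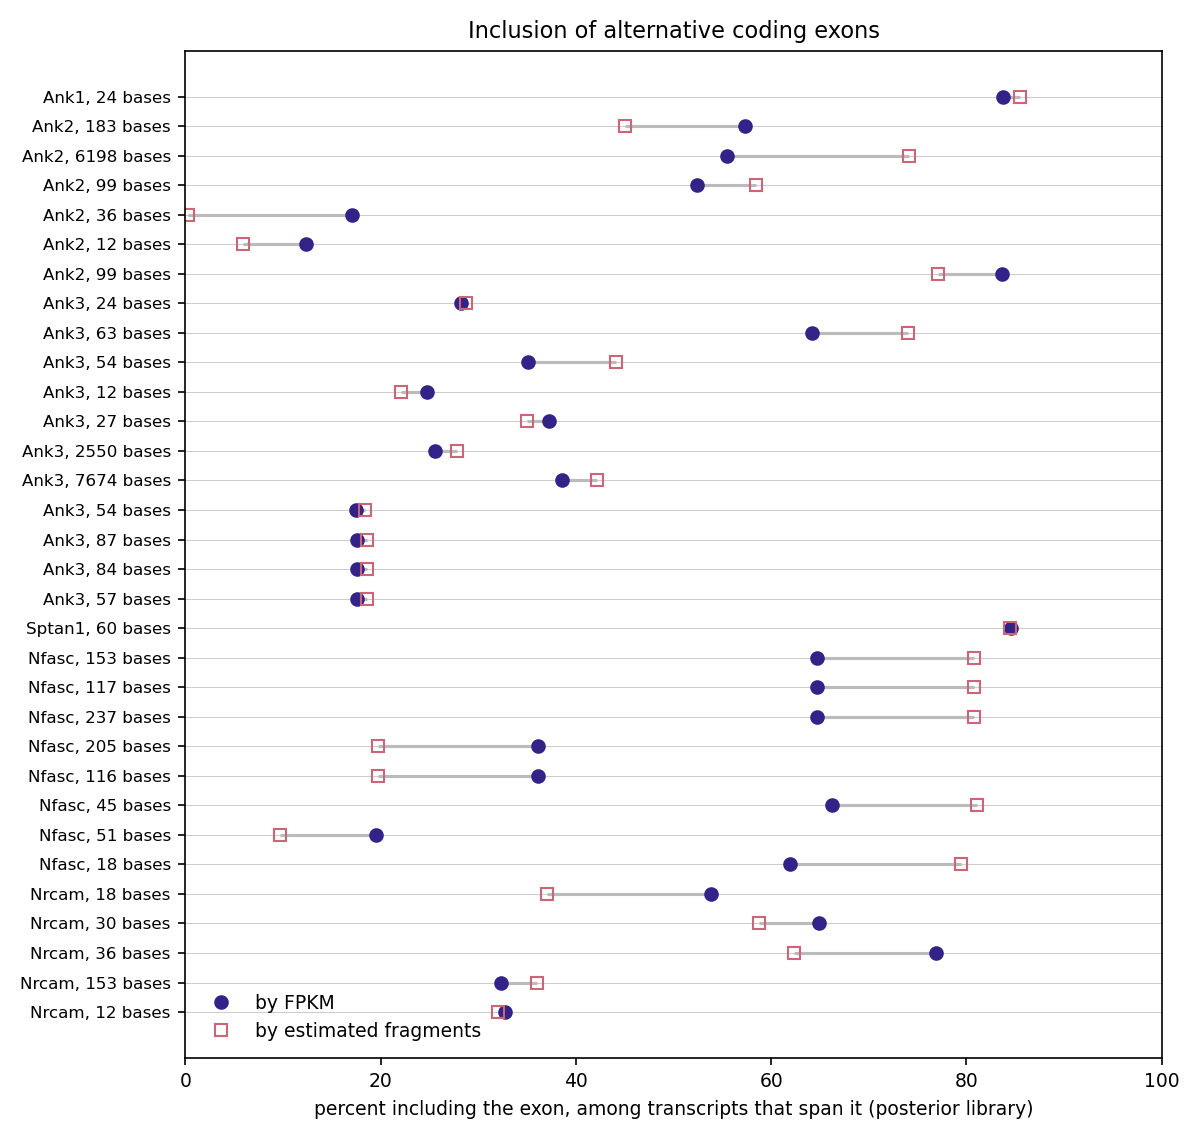
Percent of a member's transcripts that include each alternative coding exon, among the posterior transcripts that span it, by FPKM (filled circles) and by estimated fragments (open squares); 1 row per exon, labelled by gene and length in bases. The 60-base exon of Sptan1 (84.6% and 84.5%) differs least between the scales among the exons named, and the Nfasc exons of 205 and 116 bases lie at 36.1% and 19.8%.

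The lists held 42 other genes of the membrane skeleton, the initial segment and the node, and 39 passed the filter on low values. Over all 13339 genes compared, 8.19% lay past 2-fold toward the posterior library by fragment share and 1.84% toward the anterior one. This is the background for each list below. Of the 39, 1 lay past 2-fold toward the posterior library by fragment share and 0 toward the anterior one, with a median difference of -0.09. The 1 gene was Schip1, an ankyrin-binding protein of the initial segment, with 707 fragments anteriorly and 16297 posteriorly and a ratio of shares of 7.28 (6.75 to 7.86). It shares 39.1% of its exonic bases on the same strand with Iqschfp, a gene that runs through it and had a log2 difference of 3.67, so reads of the pair cannot be told apart there and the value is uncertain. By FPKM, 4 of the 39 were past 2-fold toward the posterior library (Schip1, Epb41l2, Epb41l3 and Tmod3) and 3 toward the anterior one. Over all genes, 14.5% and 7.11% were past 2-fold in these directions by FPKM, so the counts do not set the lists apart. Bcan, which encodes the matrix proteoglycan brevican, had the highest posterior FPKM of the other initial segment and node genes, at 90.2, and a ratio of shares of 1.19 (1.16 to 1.22).

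Among the other skeleton genes, 11 of 11 partners of spectrin and actin were within 2-fold by share, with a median of 0.01. Add1, which encodes adducin-1, a protein that caps actin and recruits spectrin, had the highest posterior FPKM of these, at 141, and a ratio of shares of 0.887 (0.872 to 0.903). In the L1 and contactin list, 8 of 8 were within 2-fold, 4 in each direction. Cntn2, the contactin that pairs with Caspr2 at juxtaparanodes, had 178 and 256 ppm, a ratio of 1.44 (1.40 to 1.47), beside 1.15 for Cntnap2. Cntn1, a paranodal partner of glial neurofascin, had the highest FPKM of that list and a ratio of 0.881 (0.867 to 0.894).

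Channels of the initial segment and juxtaparanode lay on the anterior side: 9 of 11 were lower in the posterior library by share, 0 past 2-fold, with a median of -0.21. Scn2a and Scn8a, the sodium channel alpha subunits of the initial segment, had ratios of 0.683 (0.673 to 0.693) and 0.843 (0.831 to 0.856). Kcnq3, a potassium channel subunit that binds ankyrin-G, had a ratio of 1.11 (1.09 to 1.13). Ank3 had 1.33 and Sptbn4 1.20 on the same scale. The neuronal markers had a median of -0.47 and the oligodendrocyte markers of 0.84, and the part of these in the channel values was not tested.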

How the data were processed

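The members and gene lists were chosen with earlier results of these data known. The anterior values are FPKM per gene as deposited. Reads were aligned with HISAT2 2.0.5 to mm10, per the submitters' processing notes. Not given in the sources used here are the counting program, the annotation and the strand setting. Anterior fragments were recovered from FPKM and gene length, and 100% of the 54532 genes gave whole multiples within 0.001. The posterior values the authors deposited are estimated counts and TPM per transcript, made with Salmon against GENCODE, per the labels. Posterior FPKM was computed from the deposited estimated counts and effective lengths and summed per gene, and TPM was not used in a comparison.

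Genes were joined by identifier without version. Fragment shares are per 1000000 protein-coding fragments. Differences are log2 with a pseudocount of 0.5, for protein-coding genes that reached an FPKM of 1 in at least 1 library, centred on their median (shift 0.00298 by share and 0.63 by FPKM), and understate the change of low genes. Called means past 2-fold. Ratios of shares have exact Clopper-Pearson 95% intervals, and levels have exact Poisson ones. No p-value was computed, since each position had 1 library. The comparison was tested on simulated data. Exons, codons, unique words of 31 bases and sequences came from GENCODE M21 on GRCm38. All 9 members are named, with each transcript at 5% or more of the FPKM, and, of each list, the gene with the highest FPKM, those past 2-fold and those compared with a member. Some items that this rule names are not reported here. Python 3.11.15, numpy 2.4.6, pandas 2.3.3, scipy 1.17.1 and matplotlib 3.10.9 were used. Alternatives were the pseudocount, the filter, the scaling total, the centring, the FPKM scale and posterior protein-coding transcripts alone. Anterior levels with matched lengths were added after seeing the data. Their total is the sum of the recovered anterior fragments, which is not the total of the deposited FPKM.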

Additional observations from a re-analysis of the deposited data

How the results depend on the processing

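The count of members past 2-fold, 0 by fragment share, came to 2 by FPKM and to 1 with the posterior protein-coding transcripts alone. There Nrcam was past 2-fold on the anterior side, but the anterior fragments stayed whole, so the 2 libraries were counted unlike. The median difference of the members, 0.20, came to 0.69 by FPKM and 0.31 with protein-coding transcripts alone. The count of other genes past 2-fold, 1 of 39, came to 7 by FPKM, where 14.5% and 7.11% of all genes were past 2-fold toward the posterior and anterior library. Other pseudocounts, no centring, scaling to all genes, no filter and an FPKM of at least 5 left these 3 results within their counting error or at the same count. The number of members led by 1 transcript at 50% or more was 4 or 5 under the 4 alternatives. The share of the leading transcript of a member moved in 25 of 36 recomputed values. The cause was not tested, except that FPKM and fragments differ by length. Leaving out a replicate was not possible with 1 library per position. No paired analysis was possible because each position had 1 library. Depth limits none of the members, whose lowest count was 2717 fragments; the spread between animals is unknown.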
